A study of Mus musculus with 6 samples.

Results

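Genes that move and store zinc and copper were compared between macrophages of the pancreatic islet and macrophages of visceral fat. They were chosen by symbol: the zinc exporters Slc30a1 to Slc30a10 without Slc30a8, the zinc importers Slc39a1 to Slc39a14, the metallothioneins Mt1 to Mt4, the metal-responsive transcription factor Mtf1, the divalent metal transporter Slc11a2, the copper transporters Slc31a1, Slc31a2, Atp7a and Atp7b, and the copper chaperones Atox1 and Ccs. This gave 35 of the 50600 genes in the count table: 9 zinc exporters, 14 zinc importers, 4 metallothioneins, 6 copper genes, Mtf1 and Slc11a2. Slc30a8, the zinc transporter of insulin granules, was left out by the rule and is used below as a marker of endocrine RNA. Both groups came from C57BL/6J males aged 12 weeks on a chow diet, with no treatment. Cells had been sorted as live CD45+ F4/80+ CD64+ cells from islets and from epididymal white adipose tissue, and bulk RNA was sequenced from 3 libraries of each tissue, numbered 2, 4 and 6 in both. Neither tissue carried a transgene or a mutation according to the labels, and how many animals gave the cells of 1 library was not stated in the labels used here. The labels call the tissues autologous, which pairs equal numbers, and the reported tests do not use this pairing. Where libraries are not separate animals, the p-values below measure only the spread between these libraries.

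Zinc and copper are needed by many enzymes and are harmful when free, so cells hold them at very low free levels. ZIP proteins, encoded by the Slc39a genes, bring zinc into the cytosol from outside or from organelles, and ZnT proteins, encoded by the Slc30a genes, carry it out of the cytosol. Metallothioneins are small cysteine-rich proteins that bind both metals, and MTF1 senses free zinc and switches on Mt1, Mt2 and Slc30a1 through short metal response elements. Copper enters through CTR1 (Slc31a1), is handed by the chaperone ATOX1 to the pumps ATP7A and ATP7B, and is handed by CCS to superoxide dismutase 1. In macrophages, zinc withdrawal and copper loading of the phagosome are known ways of acting on microbes.

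The start regions of Mt1, Mt2 and Slc30a1 are shown because these textbook targets of MTF1 share the same control element and yet had different values here. Each window holds the 250 bases before a transcript start in RefSeq (GRCm38.p6) and the 50 bases from it, 5′ to 3′, and capitals mark the core letters of the metal response element, searched as TGCACNC and TGCGCNC on both strands with overlapping matches joined.
Mt1, chr8:94178839-94179138, plus strand: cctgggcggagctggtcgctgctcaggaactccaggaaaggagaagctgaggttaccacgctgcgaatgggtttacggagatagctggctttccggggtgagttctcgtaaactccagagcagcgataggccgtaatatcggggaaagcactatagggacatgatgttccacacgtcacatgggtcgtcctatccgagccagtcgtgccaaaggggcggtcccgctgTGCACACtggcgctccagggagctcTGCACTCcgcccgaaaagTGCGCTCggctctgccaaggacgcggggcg
Mt2, chr8:94172368-94172667, plus strand: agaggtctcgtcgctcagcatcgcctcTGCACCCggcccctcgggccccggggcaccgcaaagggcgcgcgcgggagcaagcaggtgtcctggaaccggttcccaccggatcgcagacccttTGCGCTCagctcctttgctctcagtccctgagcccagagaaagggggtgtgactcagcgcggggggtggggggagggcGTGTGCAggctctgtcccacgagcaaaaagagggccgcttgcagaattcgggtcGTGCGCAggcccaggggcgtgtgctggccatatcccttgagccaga
Slc30a1, chr1:191906531-191906830, plus strand: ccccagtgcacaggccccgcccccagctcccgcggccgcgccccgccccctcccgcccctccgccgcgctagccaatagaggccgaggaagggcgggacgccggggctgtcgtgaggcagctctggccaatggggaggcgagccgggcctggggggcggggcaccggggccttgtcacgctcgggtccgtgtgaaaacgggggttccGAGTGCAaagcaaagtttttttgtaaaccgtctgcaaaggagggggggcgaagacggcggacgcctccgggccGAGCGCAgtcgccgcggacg
The Mt1 window held 3 matches, the Mt2 window 4 and the Slc30a1 window 2. Across 32851 windows of the same length in the RefSeq table, 25.7% held at least 1 match, 6.14% at least 2, 1.31% at least 3 and 0.295% at least 4. Windows were found for 30 of the 35 genes, and 18 of these genes had at least 1 match. Atp7a had 2 matches, and Atox1, Mtf1 and Slc39a10 had none in their windows. GENCODE also lists Mt1 transcripts that start downstream of the Mt1 window's start site, at 94179211 and 94179241. It places the start of Mt2 at 94172664, near the end of the Mt2 window, so the match counts are of windows placed differently. Which starts these cells used was not tested. A match of letters is a description of the sequence and does not show that MTF1 binds there.

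Total counts ranged from 4089980 to 9235591 per library. Genes of the sorted surface proteins, Ptprc, Adgre1 and Fcgr1, were present in every library and together took 0.0993% to 0.179% of counts. RNA of islet endocrine cells was present in the islet libraries: 18 markers, among them the insulin genes, took 0.823%, 0.548% and 0.395% of counts in islet libraries 2, 4 and 6 and at most 0.000805% in fat. All 18 were higher in islet (edgeR adjusted p under 0.05, where 8.97% of all genes tested were higher), and 11 of them had no count in any fat library. None of the 18 could pass the filter on low counts through the fat libraries alone, as together they took 0.000118% of counts in fat library 6. The 11 could only be counted as higher, so the count of 18 is a description. Acinar and duct markers took 0.00602% to 0.0122% in islet and at most 0.000523% in fat. Fat libraries held more stromal RNA (0.0104% to 0.0462%, against at most 0.000549%), adipocyte RNA (0.00794% to 0.0201%, against at most 0.00229%) and endothelial RNA (0.00426% to 0.0239%, against at most 0.00319%). Of 10 adipocyte markers, 9 had no count in any islet library, Adipoq and Plin1 among them. Lymphocyte markers took at most 0.00102% of counts and granulocyte and mast cell markers at most 0.00722% in any library. Islet libraries 2 and 4 stood apart from islet library 6 by their heat shock RNA, with 10.4% and 11.3% of counts from 12 heat shock genes against 0.871%, and 0.284% to 0.317% in fat.

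The set split into a few genes that differed between the tissues and a majority that did not pass the test. Of the 35 genes, 26 passed the filter on low counts, and 5 of these were higher in islet macrophages, 1 was lower and 20 did not pass. The importers Slc39a4 and Slc39a6, the exporter Slc30a1, the copper chaperone Atox1 and the copper pump Atp7a rose, and the importer Slc39a10 fell. These calls are edgeR quasi-likelihood tests with Benjamini-Hochberg adjustment over all 12152 genes tested, at a threshold of 0.05. The same test called 19.4% of all genes tested, 8.97% as higher and 10.5% as lower, and the called share of the 26 was 23.1%. That share is near the background, so the zinc and copper genes were not set apart by how often they differed. Slc39a4 passed the filter on low counts through the islet libraries alone. The median log2 difference was 0.30 over the 26 genes and 0.01 over all genes tested. Islet and fat ranges did not overlap for 13 of the 26, 9 with islet above and 4 with islet below. Of all genes tested, 40.6% had ranges that did not overlap, 18.2% with islet above and 22.3% with islet below. In bulk RNA, fewer cells of a type and less RNA per cell cannot be told apart.

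**Figure D1:**
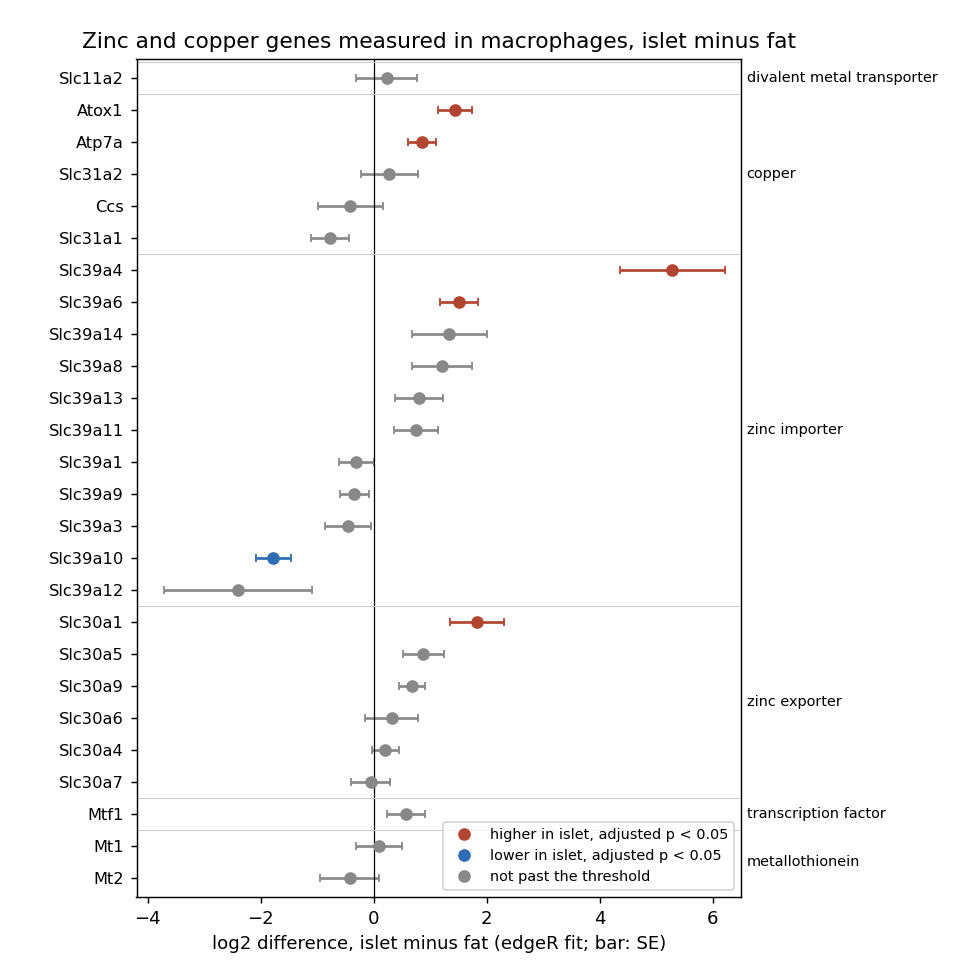
Log2 difference (islet minus fat, x axis) of the 26 zinc and copper genes tested, with the standard error as the bar, grouped by role; red marks genes that rose, blue the gene that fell and grey those not past the threshold. Slc39a4 has the highest value, 5.28, and 20 of the 26 genes are grey.

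Metallothionein RNA was abundant in both tissues, with overlapping ranges. Mt1 (GRCm38 chromosome 8, 94179082 to 94180327) stood at 635, 231 and 747 CPM (counts scaled to the library's TMM-adjusted size, edgeR) for islet libraries 2, 4 and 6, against 487, 480 and 543 CPM in fat libraries 2, 4 and 6. Mt2 (chromosome 8, 94172664 to 94173568) stood at 136, 23.8 and 125 CPM in islet and 120, 120 and 144 CPM in fat. For Mt1, islet libraries 2 and 6 lay above every fat library and islet library 4 below every one, and for Mt2 islet library 4 was the lowest of the 6. The log2 differences were 0.10 ± 0.41 for Mt1 and -0.42 ± 0.52 for Mt2 (SE; edgeR adjusted p = 0.898 and 0.626). The mean sum of both was 632 ± 331 CPM for islet and 631 ± 48.5 CPM for fat (SD, n = 3 per tissue), an exact two-sided permutation p = 1. With 3 libraries against 3 that test cannot go below 0.1. No 50-base stretch of the Mt1 transcripts occurs in a transcript of another gene, so reads of Mt1 and Mt2 can be told apart, but 73.5% of the exonic length of Mt2 is overlapped by Gm45774 on the opposite strand. No source used here gives the strand setting of the counting. Gm45774 itself had 0 to 64 counts per library, far fewer than Mt2 with 83 to 1272. Mt3, the form known from brain, had 1 count in all 6 libraries and Mt4, the form known from squamous epithelium, had none.

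Mtf1, the zinc sensor, stood at 52.6, 22.1 and 36.9 CPM in islet and 23.5, 23.1 and 28.8 CPM in fat. Islet libraries 2 and 6 were above the fat range and islet library 4 was just below it. The log2 difference of 0.57 ± 0.34 (SE) did not pass (edgeR adjusted p = 0.288). Exons of 1110065P20Rik on the opposite strand overlap 8.1% of its exonic length.

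Among zinc exporters, only Slc30a1 passed the test. Slc30a1 (ENSMUSG00000037434.7, chromosome 1, 191906767 to 191913247) encodes ZnT1, the exporter of the cell surface and a classical target of MTF1. Its levels were 235, 60.8 and 256 CPM in the islet (libraries 2, 4 and 6) against 50.1, 47.5 and 58.2 CPM in fat. Exons of 1700034H15Rik on the opposite strand cover 8.92% of its exonic length, and opposite-strand genes cover 2.37% to 16.0% of Slc30a4, Slc30a7, Slc11a2, Slc39a9 and Slc39a13. Islet libraries 2 and 6 were far above fat, while islet library 4 was only just above the highest fat library. The fitted fold was 3.55, a log2 difference of 1.83 ± 0.47 (SE, edgeR adjusted p = 0.0277). Without islet replicate 2 the adjusted p was 0.0879, and without fat replicates 2, 4 and 6 it was 0.120, 0.124 and 0.0902, while the log2 difference stayed between 1.51 and 2.24 over all alternatives. Islet library 4 was thus the lowest islet library for Slc30a1, Mt1, Mt2 and Mtf1. It was also the lowest islet library for Slc11a2, Slc31a2, Slc39a1, Slc39a6 and Slc39a14 among others, so this was not particular to Mtf1 and its targets.

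The other exporters tested act in organelles and did not pass. Slc30a9, which encodes the mitochondrial exporter ZnT9, had narrow ranges that did not overlap, with 50.4, 45.0 and 48.5 CPM in islet and 32.0, 27.3 and 30.8 CPM in fat. Its log2 difference was 0.68 ± 0.23 (SE), with an edgeR adjusted p = 0.0720, and DESeq2 called it higher (adjusted p = 0.0456). Slc30a5, a ZnT of the early secretory pathway, stood at 92.7, 41.3 and 40.1 CPM in islet and 29.7, 35.7 and 29.4 CPM in fat. Its islet mean rested on library 2, and its log2 difference of 0.88 ± 0.36 had an edgeR adjusted p = 0.127. Without islet replicate 6 it passed (log2 1.09, edgeR adjusted p = 0.0346), while without islet replicate 2 the log2 difference was 0.36 (adjusted p = 0.394). Slc30a4, a vesicular exporter, varied least within a tissue, at 29.8, 30.1 and 30.9 CPM in islet and 25.0, 26.3 and 27.5 CPM in fat, with a log2 difference of 0.21 ± 0.24. Slc30a7, an exporter of the Golgi, stood at 34.9, 28.1 and 57.1 CPM in islet and 52.5, 29.1 and 43.3 CPM in fat, overlapping throughout. Slc30a6, which pairs with the product of Slc30a5, lay between 6.02 and 8.06 CPM in islet and between 4.44 and 7.76 CPM in fat. Slc30a2, Slc30a3 and Slc30a10 had 1 count between them in all 6 libraries.

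Zinc importers held the widest fold difference of the set and the only gene that fell. Slc39a4 (ENSMUSG00000063354.6, chromosome 15, 76612383 to 76617384) encodes ZIP4, best known as the importer through which the gut takes up dietary zinc. It had 38, 27 and 72 counts in islet libraries 2, 4 and 6 and 0, 3 and 2 counts in the fat libraries, or 7.66, 7.74 and 9.70 CPM against 0, 0.398 and 0.235 CPM. All islet libraries were above all fat libraries, and the islet libraries were close to each other. A count of 0 in fat library 2 allows up to 0.284 CPM (3 counts). The fitted fold was 39.0 (log2 5.28 ± 0.93, SE, edgeR adjusted p = 0.00520). The ratio of pooled CPM, summed counts over summed TMM-adjusted library sizes, was 45.9 with an exact 95% interval of 19.2 to 144. Such intervals, and the floor of 3 counts, describe counting error alone, because PCR copies of 1 molecule cannot be recognised without molecular identifiers. Slc39a4 passed under each of the 16 alternatives, with an edgeR, DESeq2 or limma adjusted p of at most 0.0312. It entered the filtered fits through the islet libraries alone, and the alternatives refit the same counts, so this is a description.

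The level of Slc39a4 was set beside that of endocrine RNA because such RNA was far more abundant in the islet libraries. Slc30a8 had 18.1, 15.8 and 10.6 CPM in the islet, in library order, and no count in fat. Slc39a4 was highest in islet library 6, where Slc30a8 and the summed endocrine markers were lowest. The ratio of Slc39a4 counts to Slc30a8 counts was 0.422, 0.491 and 0.911 in the same libraries. The part of endocrine RNA in the Slc39a4 difference was not tested.

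Slc39a6 and Slc39a10, close relatives whose products ZIP6 and ZIP10 can join in 1 complex at the cell surface, went opposite ways. Slc39a6 (ENSMUSG00000024270.11, chromosome 18, 24579881 to 24603817) stood at 64.1, 29.2 and 60.4 CPM in islet and at 18.2, 19.0 and 17.1 CPM in fat. Every islet library was above every fat library, with islet library 4 again the lowest of the islet libraries. It was 2.84-fold higher in islet (log2 1.51 ± 0.33, SE, edgeR adjusted p = 0.0140). The adjusted p was 0.0518 without islet replicate 2 and 0.0757, 0.0718 and 0.0717 without fat replicates 2, 4 and 6. Slc39a10 (ENSMUSG00000025986.6, chromosome 1, 46807544 to 46892852) stood at 10.5, 12.6 and 19.1 CPM in islet and at 46.1, 44.8 and 54.7 CPM in fat. Every islet library was below every fat library. It was 3.42-fold lower in islet (log2 -1.78 ± 0.30, SE, edgeR adjusted p = 0.00436) and passed under each of the 16 alternatives. In each islet library Slc39a6 had more counts than Slc39a10, and in each fat library fewer, with ratios of 6.12, 2.32 and 3.16 in islet and 0.394, 0.423 and 0.312 in fat.

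**Figure D2:**
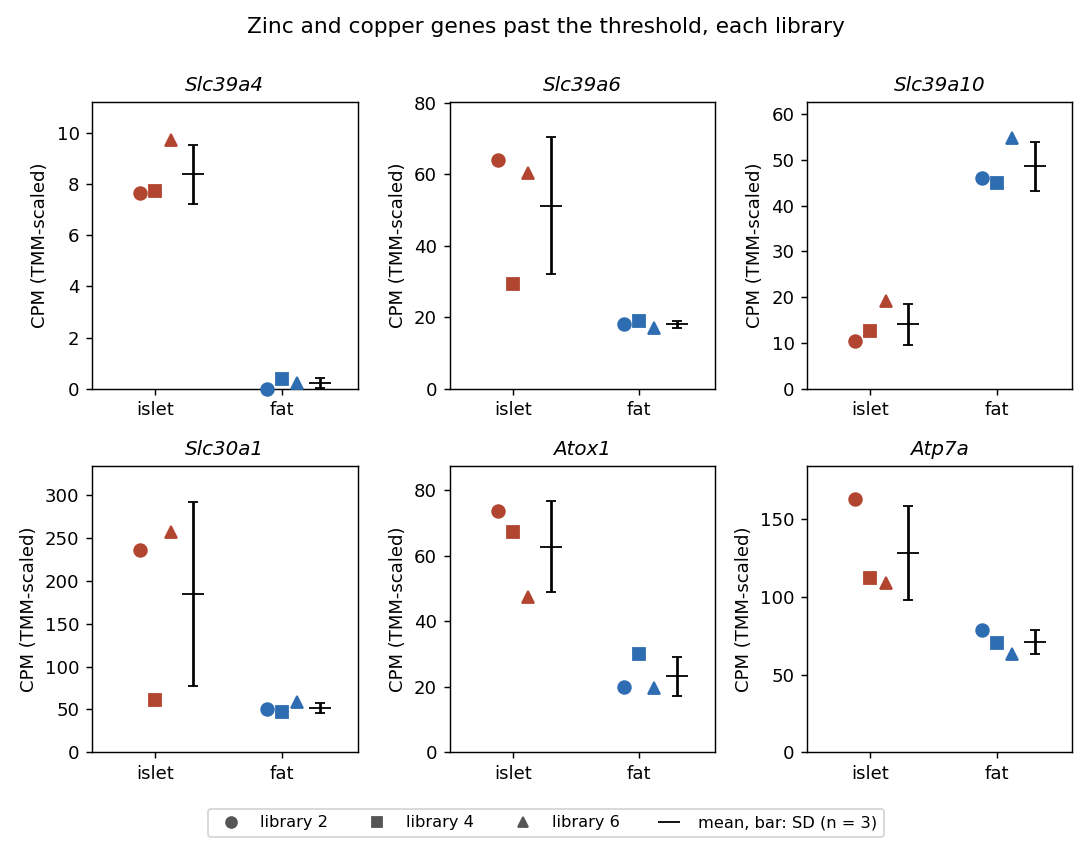
CPM of the 6 genes past the threshold in each library (y axis, CPM from 0), islet in red and fat in blue, with the mean and SD (n = 3) as the black mark. Ranges of the tissues do not overlap in any panel, and islet library 4 (square) at 60.8 CPM lies closest to fat for Slc30a1.

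The other importers did not pass. Slc39a1, which encodes ZIP1 of the plasma membrane, was the most abundant importer per kilobase and stood at 68.5, 51.0 and 117 CPM in islet and 93.9, 99.9 and 99.6 CPM in fat. Islet libraries lay on both sides of the fat range, and the log2 difference was -0.31 ± 0.31 (SE, edgeR adjusted p = 0.545). Without islet replicate 6 it was called lower (log2 -0.71, edgeR adjusted p = 0.0395), and without islet libraries 2 and 4 the difference was 0.18. Transcripts of Slc39a1 share 21.8% of their 50-base stretches with another gene, so its counts may miss or include reads of a copy. Slc39a9, which encodes ZIP9, stood at 36.3, 34.1 and 25.1 CPM in islet and 37.7, 38.9 and 44.4 CPM in fat, with ranges that did not overlap but lay close together (log2 -0.34 ± 0.25, edgeR adjusted p = 0.399).

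Slc39a14 and Slc39a8 encode ZIP14 and ZIP8, which also carry manganese and iron and are induced in inflammation. Slc39a14 stood at 17.5, 5.16 and 45.5 CPM in islet and 7.28, 8.23 and 11.8 CPM in fat. Islet library 4 was below fat, islet libraries 2 and 6 above, and the log2 difference of 1.34 ± 0.66 (SE) had an edgeR adjusted p = 0.199. It was called higher by edgeR with no filter on low counts, without islet replicate 4 (log2 1.79) and without islet libraries 2 and 4 (log2 2.25). Without islet replicate 6 its log2 difference was 0.33 (edgeR adjusted p = 0.678). Slc39a8 stood at 9.27, 11.5 and 4.45 CPM in islet and 2.93, 4.25 and 3.65 CPM in fat, with islet library 6 only just above fat (log2 1.21 ± 0.54, edgeR adjusted p = 0.158). It passed without islet replicate 6 (log2 1.51, edgeR adjusted p = 0.0447) and stood at log2 0.23 (adjusted p = 0.813) without islet libraries 2 and 4. The order of the islet libraries was therefore reversed between these genes, library 6 being the highest for Slc39a14 and the lowest for Slc39a8. Slc39a13 (islet 11.1 to 32.5 CPM, fat 10.7 to 14.5 CPM), Slc39a11 (10.6 to 18.9 and 6.81 to 10.9 CPM) and Slc39a3 (5.45 to 13.9 and 12.9 to 15.0 CPM) had overlapping ranges. Slc39a12 had 9, 0 and 0 counts in islet and 35, 32 and 19 in fat. Its ratio of pooled CPM was 0.175 (exact 95% interval 0.0776 to 0.349), with an edgeR adjusted p = 0.248. All 9 islet counts came from library 2, and the gene was called lower without it (edgeR adjusted p = 0.0332). Slc39a12 passed the filter on low counts through the fat libraries and had no islet count left in that fit. It could then only be called lower, so that call is a description.

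Importers that failed the filter on low counts were Slc39a2, Slc39a5 and Slc39a7. Slc39a7 encodes ZIP7, the importer that releases zinc from the endoplasmic reticulum, and had only 0 to 15 counts per library. Of its exonic length, 80.7% is overlapped on the same strand by Gm20427, which had no count in any library. No source used here says how reads that fall in both genes were counted, so this low value was not read as a level of Slc39a7. Slc39a2 had 3, 0 and 8 counts in islet and none in fat, and Slc39a5 had none in any library.

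On the copper side, the chaperone and the pump it feeds were higher in islet macrophages. Atox1 (ENSMUSG00000018585.9, chromosome 11, 55446641 to 55461239) had 73.8, 67.4 and 47.3 CPM in islet, in library order, and 19.9, 30.1 and 19.6 CPM in fat. All islet libraries were above all fat libraries, and islet library 4 was not low here. Its level in islet was 2.70 times that in fat (log2 1.44 ± 0.29, SE, edgeR adjusted p = 0.0101). Without fat replicates 2 and 6 the edgeR adjusted p was 0.0710 and 0.0621, with a log2 difference of 1.32 in both. Atp7a (ENSMUSG00000033792.12, chromosome X, 106027276 to 106124926), the pump that loads copper enzymes in the Golgi and exports copper, stood at 162, 112 and 109 CPM in islet and 78.4, 70.5 and 63.2 CPM in fat. The islet level was 1.81 times that of fat (log2 0.85 ± 0.25, SE, edgeR adjusted p = 0.0412). This call was the weakest of the 6: it missed the threshold with the replicate number as a block (edgeR adjusted p = 0.0577), with no filter on low counts (0.0727), without islet replicate 2 (0.113), without fat replicates 2, 4 and 6 (0.131, 0.182 and 0.173) and without islet libraries 2 and 4 (0.0690).

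The genes of copper entry did not pass. Slc31a1, the copper importer CTR1, stood at 13.9, 14.6 and 27.5 CPM in islet and 32.8, 29.6 and 34.4 CPM in fat, all islet libraries being below all fat libraries (log2 -0.78 ± 0.33, SE, edgeR adjusted p = 0.141). It was called lower without islet replicate 6 (log2 -1.19, edgeR adjusted p = 0.0109), and without islet libraries 2 and 4 the difference was -0.31 (adjusted p = 0.394). Its neighbour on chromosome 4, Slc31a2, whose product CTR2 acts in endosomes, stood at 42.5, 11.8 and 64.8 CPM in islet and 27.5, 35.8 and 35.8 CPM in fat, so islet libraries lay on both sides of the fat range (log2 0.28 ± 0.51). Ccs, the chaperone for superoxide dismutase 1, overlapped between the tissues (islet 3.43 to 9.17 CPM, fat 4.16 to 10.1 CPM). Atp7b, the pump best known from liver, had 0, 8 and 0 counts in islet and 2, 0 and 0 in fat. Slc11a2 encodes DMT1, which carries iron and other divalent metals from the gut lumen and from endosomes, and it stood at 73.8, 14.9 and 93.6 CPM in islet and 62.0, 53.9 and 40.7 CPM in fat (log2 0.23 ± 0.54, edgeR adjusted p = 0.814).

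**Figure D3:**
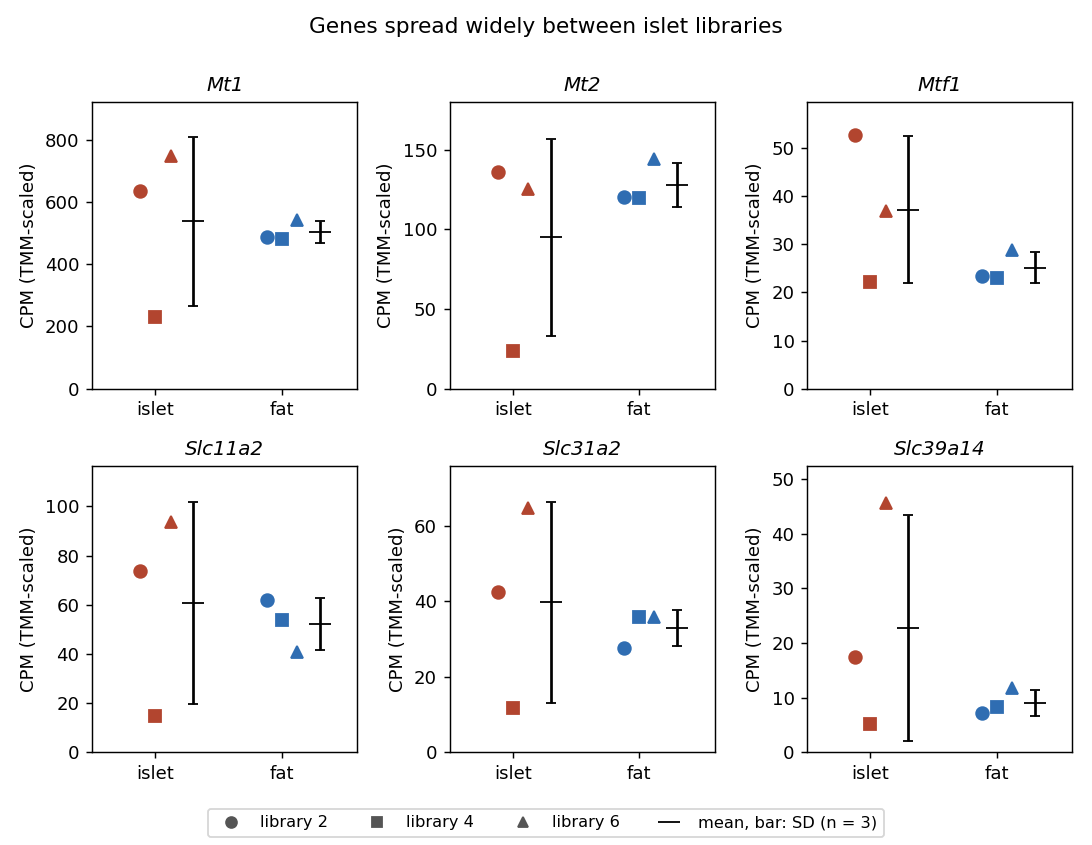
CPM in each library (y axis, CPM from 0) of 6 genes not past the threshold, islet in red and fat in blue, with the mean and SD (n = 3) as the black mark. Islet library 4 (square) is the lowest of all 6 libraries in every panel, for Mt1 at 231 CPM. The genes shown are among the 9 of the 26 with that order, so this is a description. Other genes differ, Slc39a8 being highest in islet library 4 at 11.5 CPM. The SD is smaller in fat than in islet in every panel.

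Islet library 4 alone was the lowest of the 6 libraries for 9 of the 26 genes tested (34.6%), against 24.8% of all genes tested, ties counting for no library. Islet library 6 was the highest for 10 of the 26 (38.5%), against 23% of all genes. Islet library 2, which also held much heat shock RNA, lay above every fat library for Mt1, Mtf1, Slc11a2, Slc31a2 and Slc39a14, below every one for Slc39a1, and within the fat range for Mt2, Slc30a7 and Slc39a3. Islet library 4 had the fewest counts of all libraries. The part of heat shock RNA or depth in these values was not tested.

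Per kilobase of exonic length, which allows levels to be compared between genes, Mt1, Mt2 and Atox1 were the top of the set in both tissues. Mt1 averaged 431 ± 218 CPM per kilobase in islet and 404 ± 27.8 in fat, Mt2 162 ± 105 and 218 ± 23.7, and Atox1 116 ± 25.5 and 42.9 ± 11.1 (SD, n = 3). In islet Mt2 and Atox1 did not differ beyond their spread. The annotated exons of Mt1 include transcripts with kept introns, and over the spliced length of 549 bases Mt1 came to 979 ± 494 in islet and 917 ± 63.2 in fat, against 186 ± 121 and 250 ± 27.2 for Mt2 over 511 bases. Slc39a1 was the highest importer in both tissues (33.3 ± 14.4 in islet, 41.4 ± 1.44 in fat). Slc30a1 was the highest exporter in both (35.1 ± 20.5 and 9.91 ± 1.07). Slc39a10 was number 9 of the 26 in fat (7.96 ± 0.88) and number 22 in islet (2.31 ± 0.74). Slc39a4 remained one of the scarcer transcripts in islet, at 2.69 ± 0.37 and number 20 of 26, in spite of its fold difference.

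**Figure D4:**
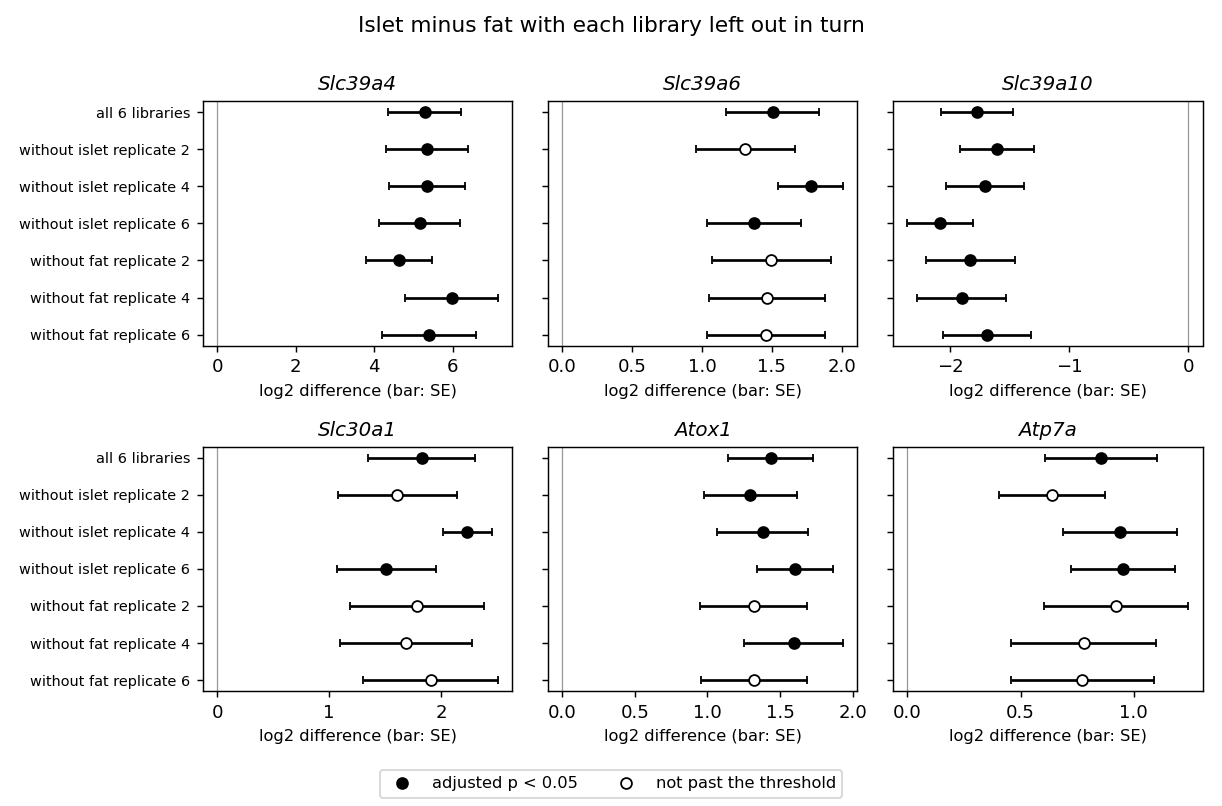
Log2 difference (islet minus fat, x axis, bar: SE) of the 6 called genes with all 6 libraries and with each library left out in turn; filled points are past the threshold. Slc39a4 and Slc39a10 are filled throughout, and every point of the other genes keeps its side of 0.

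How many genes passed depended on single libraries, while the direction of the 6 did not. Leaving out islet replicate 2 left 2 genes that rose and 2 that fell, the latter including Slc39a12, which then had no islet count. Leaving out fat replicates 2, 4 and 6 left 1, 2 and 1 that rose and 1 that fell each time. With islet replicate 6 left out, 7 rose and 3 fell. Without islet libraries 2 and 4, the lone islet library is assumed to vary like fat, so log2 differences are given for the set. They were 0.55 for Atp7a, 0.76 for Slc11a2, 0.89 for Slc31a2, 1.31 for Slc39a13, 2.25 for Slc39a14 and -0.77 for Slc39a9. Slc39a12 had no count in islet library 6 and entered that fit through fat alone, so it could only be lower. Over all genes, 494 of 12600 were higher and 593 lower without fat replicate 2, and 2064 of 14324 were higher and 2916 lower without islet libraries 2 and 4.

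Other metal genes were counted from lists of related function. Of 20 measured genes of copper enzymes, copper delivery to mitochondria and metal reduction, 6 fell, 0 rose and 14 did not pass (edgeR; 10.5% of all genes tested were lower and 8.97% higher), with a median log2 difference of -0.21 against 0.01 over all genes. Those with the smallest adjusted p were Cp, the copper ferroxidase ceruloplasmin, and Steap3 and Steap4, reductases of iron and copper. Steap3 had a mean of 1.08 ± 1.05 CPM in islet against 23.1 ± 8.69 CPM in fat, and Steap4 0.359 ± 0.622 and 29.7 ± 15.9 CPM (SD, n = 3; edgeR adjusted p = 0.00221 and 0.00268). The other genes that fell, Aoc3, Sod3 and Loxl1, had no count in any islet library and at most 6.88 CPM on average in fat, where stromal and adipocyte markers were also higher. Genes with no islet count, and Steap3 and Steap4 with at most 2.29 CPM in any islet library, passed the filter on low counts through fat alone. They could only be counted as lower, so the count of 6 and the adjusted p of Steap3 and Steap4 are descriptions. The part of those cells was not tested. Among 5 measured genes of other zinc channels and binding proteins, 1 rose in edgeR, DESeq2 and limma voom, where edgeR called 8.97% of all genes higher: Trpm2, an oxidant-gated cation channel of phagocytes, was 3.09-fold higher (63.7 ± 15.1 against 20.6 ± 5.01 CPM, edgeR adjusted p = 0.00627). Of 16 measured genes of manganese, magnesium and iron transport, 2 fell and 0 rose, a share near the 10.5% of all genes called lower. They were Slc41a2, a magnesium transporter, 3.18-fold lower, and Tmem165, a Golgi protein needed for manganese supply, 2.23-fold lower (edgeR adjusted p = 0.00266 and 0.0144). At an unadjusted p under 0.05, 0 genes of the copper list and 0 of the manganese, magnesium and iron list were higher, and DESeq2 and limma voom also called 0 higher in both lists. DESeq2 and limma voom called 6 copper genes lower and 3 of the manganese, magnesium and iron list.

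Heat shock and immediate early genes are given as measured facts beside these results. Of 12 heat shock genes, 11 rose in islet, led by Hsph1, Hspa1b and Hspb1 (edgeR, where 8.97% of all genes tested were higher). These 12 genes took 10.4% and 11.3% of counts in islet libraries 2 and 4 and 0.871% in islet library 6. Of 18 immediate early genes, 13 fell, led by Fosb, Klf4 and Dusp1 (edgeR, where 10.5% of all genes tested were lower). Metallothionein genes are also known to answer to stress signals, and the part of either list in the values above was not tested.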

How the data were processed

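RNA of macrophages sorted from islets and epididymal fat was measured in 3 libraries per tissue, made by the labels' protocols from 10 ng of total RNA with a strand-specific low-input kit. The deposited values are raw counts of reads per gene; the submitters' processing notes name STAR, featureCounts, Subread 1.6.4 and GRCm38, and no source used here gives the annotation or the strand setting. Gene identifiers were matched to GENCODE M21 (99.56% found) for coordinates, exonic lengths and overlaps, and start regions came from RefSeq (GRCm38.p6).

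The tissues were compared with edgeR 4.0.16 under R 4.3.3: filterByExpr, TMM factors and a robust quasi-likelihood fit with tissue as the only term, tested on simulated data. The Benjamini-Hochberg adjustment ran over all genes tested, at 0.05. CPM are edgeR's counts scaled to the TMM-adjusted library size, and the SE is the log2 difference divided by the root of its F statistic. Sums were compared by an exact permutation test (scipy 1.17.1). The alternatives tried were DESeq2 1.42.0, limma 3.58.1 voom, upper-quartile or RLE factors, other filters, marker or ribosomal RNA genes left out, the replicate number as a block, and libraries left out. The labels give numbers 2, 4 and 6 as batches in both tissues and call the tissues autologous, which pairs equal numbers. The reported fit and permutation tests do not use this pairing, and the block is an alternative. Deviations from the tissue means were correlated across genes, on log2 CPM with a pseudocount of 0.5. The correlations were 0.0441, 0.0733 and 0.00214 for equal numbers and -0.14 to 0.101 for others. Equal numbers did not stand apart from the others, but with 3 libraries per tissue this cannot show that pairing is absent.

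The genes and lists were chosen with earlier results of these data known. Every library is given for genes past the threshold, for Mt1, Mt2 and Mtf1, and for genes with a mean of at least 20 CPM. At most 6 others were to be named, and Slc30a6 and Slc39a12 and the per-library values of Slc39a14 and Slc39a8 were added after their values were seen. Up to 3 genes per direction with the smallest adjusted p were named in each list of other genes, and Aoc3, Sod3 and Loxl1 were added.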

Additional observations from a re-analysis of the deposited data

How the results depend on the processing

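The 6 calls kept their direction under all 16 alternatives, and 79 of their 96 values stayed past the threshold. The other 17 values are of Slc30a1, Slc39a6, Atox1 and Atp7a: 15 come from fits with 1 or 2 libraries fewer, and for the other 2, of Atp7a, the cause was not tested. With the replicate number as a block, 4 genes rose and 1 fell, and only Atp7a lost its call among the 6 (edgeR adjusted p = 0.0577). Over the fits that left out 1 library, the number that rose ranged from 1 to 7 and the number that fell from 1 to 3, and over all genes tested from 466 to 1649 higher and from 593 to 2022 lower. Without islet libraries 2 and 4, 8 genes of the set rose and 3 fell, and 2064 of all genes were higher and 2916 lower. Of the 20 genes not past the threshold, 11 passed in 14 of 320 values. Differences near 0 changed sign for 6 of them: Mt1 (log2 -0.083 in limma voom, -0.060 with the replicate block, -0.22 to 0.45 with 1 library left out), Mt2 (-0.77 to 0.026 with 1 library left out), Slc11a2 (-0.063 with the replicate block, -0.22 to 0.68 with 1 library left out), Slc30a7 (-0.41 to 0.14 with 1 library left out, 0.37 without islet libraries 2 and 4), Slc31a2 (-0.27 to 0.70 with 1 library left out) and Slc39a1 (0.18 without islet libraries 2 and 4). The difference in summed Mt1 and Mt2, 1.18 CPM, became -21.8 with RLE factors, -19.2 with upper-quartile factors, -91.0 with library totals only, -18.5 without ribosomal RNA genes, and -119 to 190 with 1 library left out. The median log2 difference of all genes moved from 0.01 to -0.30 with no filter on low counts and to -0.20 without islet libraries 2 and 4. Genes with few counts, Slc39a4 and Slc39a12 among them, are limited by depth, and a gene not past the threshold was not shown to be equal.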

Other observations

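Ratios within a library do not depend on library scaling, and 3 of them were computed after the values were seen. Mt1 counts were 4.67, 9.70 and 5.95 times those of Mt2 in islet libraries 2, 4 and 6 and 4.05, 4.01 and 3.77 times in fat, so every islet library was above every fat library although neither gene passed by itself. Slc30a1 counts were 0.370, 0.263 and 0.343 times those of Mt1 in islet and 0.103, 0.0991 and 0.107 times in fat. In islet library 4, where both genes were at their lowest islet level, this ratio was still above fat. For these ratios and that of Slc39a6 to Slc39a10, the exact two-sided permutation p was 0.1, also after Benjamini-Hochberg adjustment over the 3, which is the smallest that 3 against 3 libraries allow. The ratio of Slc39a6 to Slc39a10 had to separate, because the ranges of each gene already lay apart in opposite directions. With ratios chosen after the values were seen, these p-values are descriptions and not tests. The antisense overlap of Mt2 touches the first ratio, and its part was not tested.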
